A study of Gallus gallus with 12 samples.

Results

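Plasma carries a set of abundant proteins that the liver, and in the bird embryo also the yolk sac, secretes into blood. The transcripts described here belong to 10 such genes, read in hearts of chicken embryos: ALB, TTR, AHSG, FGA, FGB, FGG, VTN, APOA1, TF and PLG. All probe sets that the platform annotation assigns to 1 of these symbols were taken, which gave 18 probe sets out of 38439 on the array, for 10 of 13009 named genes. The genes were chosen by their log2 differences between hypoxia and normoxia on these same arrays, so those differences are described with their standard errors (SE) and carry no p-value.

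The study incubated eggs of full sibs from 3 breeds under low oxygen (hypoxia) or normal oxygen (normoxia) and hybridised heart RNA to Affymetrix chicken arrays. The 6 groups were Tibetan hypoxia and Tibetan normoxia, Shouguang hypoxia and Shouguang normoxia, and Dwarf Recessive White (DRW) hypoxia and DRW normoxia, with 2 arrays in each. The Tibetan chicken is a highland breed. No label states how low the oxygen was, how old or of which sex the embryos were, or how many hearts were pooled. Nothing says that the 2 arrays of a group came from separate animals, so errors and p-values measure only how these arrays scatter, and that scatter may be technical.

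Albumin, transthyretin and transferrin are carriers, for fatty acids and many small ligands, for thyroid hormone and for iron. The 3 fibrinogen chains form the clot that plasmin, made from plasminogen, dissolves. Fetuin A binds calcium phosphate, vitronectin links cells and the complement and clotting systems, and apolipoprotein A-I is the main protein of high-density lipoprotein, made in the bird by many tissues besides liver.

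The signal of each probe set is given on the log2 scale, where a difference of 1 is a doubling, and levels of different probe sets are not set against each other. Probe sets with a mean log2 signal of at least 6.31 (a signal of 79.5, called the dim limit below) entered the test across 23063 probe sets. Each of the 10 genes had at least 1 probe set past that filter and 13 of the 18 probe sets passed. The 5 that did not were TTR probe set 2, FGA probe set 2, TF probe set 4 and PLG probe sets 2 and 3, numbered within a gene by falling mean signal. The nearest to the limit among those that passed was FGA probe set 1, with a mean log2 signal of 6.35, and the nearest below it was PLG probe set 2, with 5.69.

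The heart arrays carried the marks of their label. TNNT2, cardiac troponin T, lay between 15.31 and 15.56 in hypoxia and between 15.27 and 15.56 in normoxia on the log2 scale, and ACTC1, cardiac actin, between 15.24 and 15.46 in hypoxia and between 15.34 and 15.49 in normoxia. The median signal of an array ranged from 134 to 155. The mean log2 level of 14 W-linked genes, which female birds alone carry, ranged from 8.09 to 9.60 over hypoxia arrays and from 6.01 to 9.47 over normoxia arrays, with the lowest value on DRW normoxia array 1. By breed it ranged from 9.23 to 9.60 over Tibetan, from 8.09 to 9.43 over Shouguang and from 6.01 to 9.49 over DRW arrays. The breeds were thus not balanced in this level.

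Among the carriers, albumin was lower in hypoxia in all 3 breeds. ALB had log2 signals of 10.93 and 9.29 in Tibetan hypoxia, against 12.38 and 11.46 in Tibetan normoxia. It had 6.72 and 9.45 in Shouguang hypoxia, against 12.94 and 12.003 in Shouguang normoxia. It had 7.77 and 7.69 in DRW hypoxia, against 9.87 and 10.18 in DRW normoxia. In every breed both hypoxia arrays lay below both normoxia arrays, but across breeds the conditions overlapped, since Tibetan hypoxia array 1 exceeded both DRW normoxia arrays. Hypoxia minus normoxia was -1.81 ± 0.71 in Tibetan, -4.39 ± 0.71 in Shouguang and -2.30 ± 0.71 in DRW hearts (limma SE). The mean over the breeds was -2.83 ± 0.41, a 7.11-fold lower level in hypoxia.

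Ordered by level, ALB was highest in Shouguang normoxia (mean 12.47), then Tibetan normoxia (11.92), Tibetan hypoxia (10.11), DRW normoxia (10.02), Shouguang hypoxia (8.08) and DRW hypoxia (7.73). Neighbours in this order whose arrays overlapped were Shouguang and Tibetan normoxia, Tibetan hypoxia and DRW normoxia, and Shouguang and DRW hypoxia. On the linear scale the 12 arrays ran from a signal of 105, on Shouguang hypoxia array 1, to 7868, on Shouguang normoxia array 1.

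Transthyretin followed albumin array by array. TTR probe set 1 had log2 signals of 8.89 and 8.21 in Tibetan hypoxia, against 10.07 and 9.52 in Tibetan normoxia. It had 7.06 and 8.33 in Shouguang hypoxia, against 10.46 and 9.86 in Shouguang normoxia, and 7.44 and 7.09 in DRW hypoxia, against 8.02 and 8.84 in DRW normoxia. The hypoxia arrays lay below the normoxia arrays in each breed. The differences were -1.24, -2.47 and -1.17 (SE 0.42 each) in Tibetan, Shouguang and DRW hearts, and their mean was -1.62 ± 0.24. TTR probe set 2 was under the dim limit on 10 of 12 arrays.

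Transferrin gave a split picture between its probe sets. TF probe set 2 had log2 signals of 9.32 and 8.28 in Tibetan hypoxia, against 10.41 and 9.45 in Tibetan normoxia, 8.77 and 8.89 in Shouguang hypoxia, against 11.22 and 10.29 in Shouguang normoxia, and 8.49 and 8.09 in DRW hypoxia, against 8.91 and 8.99 in DRW normoxia. Its hypoxia arrays were the lower ones in all 3 breeds, with a mean difference of -1.24 ± 0.22. TF probe set 3 stood at -1.36 ± 0.26, but its Tibetan arrays overlapped, with hypoxia array 1 at 8.32 and normoxia array 2 at 8.12. TF probe set 1 ranged only from 10.31 to 10.54 in hypoxia and from 10.35 to 10.73 in normoxia, a mean difference of -0.11 ± 0.09. Which of these probe sets reads the transferrin transcript was not tested, since probe sequences were not used here. TF probe set 4 was under the dim limit on 8 of 12 arrays.

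Fetuin A had the widest range of the 13 probe sets, 8.20 on the log2 scale. AHSG had log2 signals of 7.78 and 5.08 in Tibetan hypoxia, against 9.61 and 8.54 in Tibetan normoxia. It had 2.16 and 5.74 in Shouguang hypoxia, against 9.98 and 8.88 in Shouguang normoxia, and 3.99 and 1.78 in DRW hypoxia, against 6.62 and 7.20 in DRW normoxia. All 6 normoxia arrays lay above the dim limit, and 5 of 6 hypoxia arrays lay under it. In the breeds where both hypoxia arrays were under the limit, raising such signals to the limit gave a level at least 8.66-fold lower in hypoxia in Shouguang and at least 1.51-fold lower in DRW hearts. The measured means on the log2 scale were 3.95 in Shouguang hypoxia and 9.43 in Shouguang normoxia, and 2.88 in DRW hypoxia and 6.91 in DRW normoxia.

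**Figure D1:**
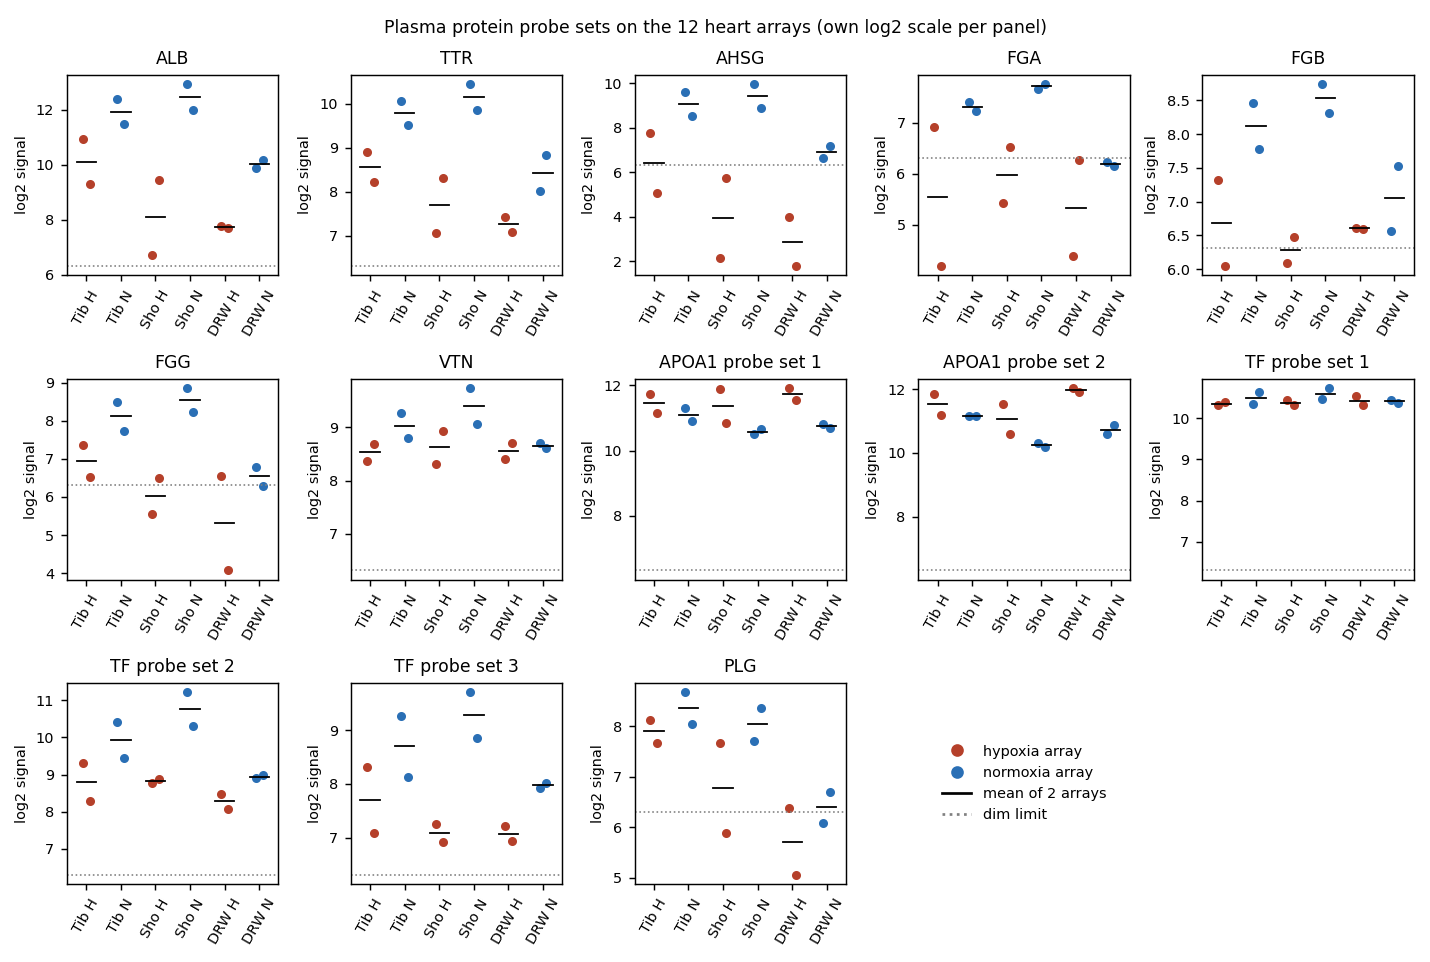
Log2 signal (vertical axis, own scale in each panel) of the 13 probe sets past the filter in the 6 groups; red points are hypoxia arrays (H), blue points normoxia arrays (N), black bars the means of 2 arrays, and the dotted line the dim limit of 6.31. ALB, TTR, AHSG and TF probe set 2 are lower in hypoxia in all 3 breeds (Tib, Sho, DRW), APOA1 probe set 2 is higher in all 3, and TF probe set 1 is nearly flat.

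The fibrinogen chains were lower in hypoxia in Tibetan and Shouguang hearts and nearer the dim limit in DRW hearts. FGB, the beta chain, had log2 signals of 7.33 and 6.05 in Tibetan hypoxia, against 8.46 and 7.78 in Tibetan normoxia, 6.09 and 6.48 in Shouguang hypoxia, against 8.74 and 8.31 in Shouguang normoxia, and 6.61 and 6.60 in DRW hypoxia, against 6.57 and 7.53 in DRW normoxia. FGG, the gamma chain, had 7.35 and 6.53 in Tibetan hypoxia, against 8.50 and 7.73 in Tibetan normoxia, 5.55 and 6.49 in Shouguang hypoxia, against 8.86 and 8.24 in Shouguang normoxia, and 6.55 and 4.07 in DRW hypoxia, against 6.79 and 6.30 in DRW normoxia. For both chains the conditions separated in Tibetan and Shouguang hearts and overlapped in DRW hearts.

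FGA probe set 1, the alpha chain, had 6.92 and 4.18 in Tibetan hypoxia, against 7.41 and 7.23 in Tibetan normoxia, 5.44 and 6.53 in Shouguang hypoxia, against 7.68 and 7.77 in Shouguang normoxia, and 4.39 and 6.27 in DRW hypoxia, against 6.23 and 6.16 in DRW normoxia. All 4 DRW arrays of FGA were under the dim limit, so no difference could be read there. The mean differences over the breeds were -1.37 ± 0.28 for FGB, -1.64 ± 0.40 for FGG and -1.46 ± 0.49 for FGA. Once dim signals were set to the limit, they were -1.29, -1.15 and -0.67. FGA probe set 2 was under the limit on 10 of 12 arrays.

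Plasminogen and vitronectin differed less between the conditions. PLG probe set 1 had log2 signals of 8.13 and 7.67 in Tibetan hypoxia, against 8.67 and 8.04 in Tibetan normoxia, 7.67 and 5.88 in Shouguang hypoxia, against 7.71 and 8.36 in Shouguang normoxia, and 6.37 and 5.07 in DRW hypoxia, against 6.09 and 6.71 in DRW normoxia. The conditions overlapped in Tibetan and DRW hearts, and the mean difference was -0.80 ± 0.34. VTN had 8.37 and 8.69 in Tibetan hypoxia, against 9.27 and 8.79 in Tibetan normoxia, 8.32 and 8.93 in Shouguang hypoxia, against 9.74 and 9.07 in Shouguang normoxia, and 8.41 and 8.71 in DRW hypoxia, against 8.70 and 8.62 in DRW normoxia. Its mean difference was -0.46 ± 0.16, and only the DRW arrays overlapped. PLG probe set 2 was under the dim limit on 9 and PLG probe set 3 on 12 of 12 arrays.

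Apolipoprotein A-I ran the other way. APOA1 probe set 2 had log2 signals of 11.84 and 11.20 in Tibetan hypoxia, against 11.16 and 11.15 in Tibetan normoxia, 11.53 and 10.59 in Shouguang hypoxia, against 10.32 and 10.20 in Shouguang normoxia, and 12.04 and 11.90 in DRW hypoxia, against 10.59 and 10.86 in DRW normoxia. The hypoxia arrays were above the normoxia arrays in all 3 breeds, by 0.36 ± 0.26, 0.80 ± 0.26 and 1.25 ± 0.26 in Tibetan, Shouguang and DRW hearts. APOA1 probe set 1 gave 0.34 ± 0.29, 0.79 ± 0.29 and 0.99 ± 0.29, with overlap in Tibetan hearts. The mean over the breeds was 0.80 ± 0.15 and 0.71 ± 0.17 for the 2 probe sets.

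Counted together, 11 of 13 probe sets had a mean difference below 0, and 8 of 13 had one at or below -1, where 0.217% of all tested probe sets lay at or below -1. Here and below, counts of 13 take the probe sets of TF and of APOA1 separately. Probe sets of the same gene are not independent readings. With 1 probe set per gene, that of the highest mean signal, 9 of 10 genes were below 0 and the median was -1.41, against a median of 0.005 over all tested probe sets, 48.9% of which were below 0. The medians of the 10 genes were -1.21 in Tibetan, -1.99 in Shouguang and -0.77 in DRW hearts. Both hypoxia arrays lay below both normoxia arrays for 8 of 13 probe sets in Tibetan hearts (14.9% of all tested probe sets), 11 of 13 in Shouguang hearts (16.8%) and 5 of 13 in DRW hearts (18.5%). In all 3 breeds at once 4 of 13 did so (ALB, TTR probe set 1, AHSG and TF probe set 2), with 1.27% of all tested probe sets, and 1 of 13, APOA1 probe set 2, lay above in all 3, with 1.21%. These counts use the contrast by which the genes were picked. AHSG, FGA probe set 1 and FGG also had hypoxia means under the dim limit, at 4.42, 5.62 and 6.09. Their normoxia means were above it, at 8.47, 7.08 and 7.74. They passed the filter through their normoxia arrays, so their place among the probe sets below 0 follows in part from the filter.

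With the W-linked mean entered as a covariate, the mean hypoxia difference was -2.89 for ALB, against -2.83 without it, and -1.72 for TTR probe set 1, against -1.62 without it. Leaving out 1 array at a time gave -3.29 to -2.38 for ALB, -1.84 to -1.41 for TTR probe set 1 and -4.65 to -3.45 for AHSG. For these 3 genes, the ends of the range came without Shouguang hypoxia array 2 and without Shouguang hypoxia array 1. With signals raised to the dim limit, the AHSG mean difference was -1.91 ± 0.29, against -4.05 as measured.

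**Figure D2:**
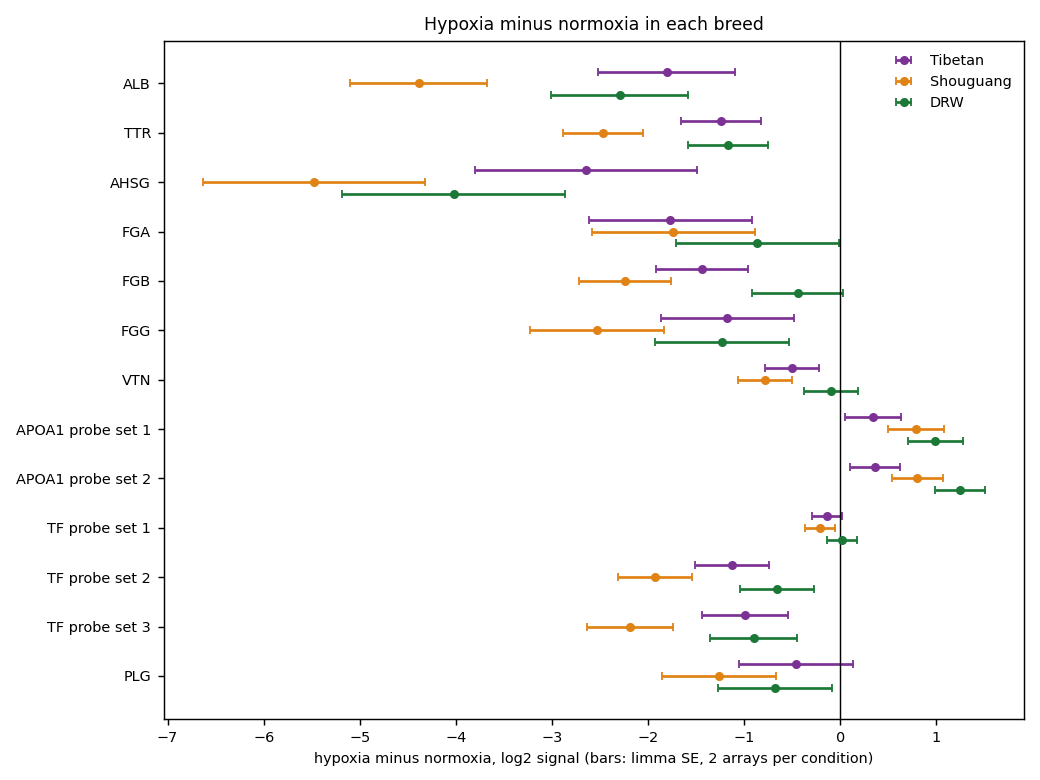
Hypoxia minus normoxia on the log2 scale (horizontal axis) for the 13 probe sets in Tibetan, Shouguang and DRW hearts; points are estimates from 2 arrays per condition and bars the limma SE. The points of 10 probe sets lie below 0 in all 3 breeds, those of TF probe set 1 lie near 0, and both APOA1 probe sets lie above 0. Some DRW points rest on signals under the dim limit. Raising these to the limit gave 0 for FGA, -0.12 for FGG and -0.60 for AHSG, against the plotted -0.86, -1.23 and -4.02.

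The hypoxia differences were also set side by side between breeds, as a description, since they chose the genes. The Shouguang difference was below the DRW difference for 13 of 13 probe sets, with a median gap of -1.27, where 51.1% of all tested probe sets had a gap below 0. The ALB gap was -2.09 ± 1.01. The Tibetan difference was above the Shouguang difference for 10 of 13 probe sets and below it for 3, with a median gap of 0.80, where 48.3% of all lay below 0. The ALB gap was 2.58 ± 1.01 and that of TTR probe set 1 was 1.23 ± 0.59. Between Tibetan and DRW hearts the gap was below 0 for 9 of 13 and above 0 for 4, with a median of -0.16, where 49.1% of all lay below 0. The gaps above 0 included those of AHSG (1.38), FGG (0.06) and PLG probe set 1 (0.22), which rest in part on dim DRW signals. With signals raised to the dim limit, their differences were -2.03, -1.17 and -0.46 in Tibetan hearts. In DRW hearts they were then -0.60, -0.12 and -0.17, so these gaps turned below 0. The pairs of breeds share arrays.

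Averaged over both conditions, most of the plasma protein probe sets had higher means in Tibetan and in Shouguang hearts than in DRW hearts, and 1 such difference passed the test. This contrast does not contain the hypoxia difference. Tibetan minus DRW was below 0 for 1 of 13 probe sets, where 50% of all tested probe sets were. AHSG, FGA probe set 1, FGG and PLG probe set 1 had DRW means under the dim limit, at 4.90, 5.77, 5.93 and 6.06. Their Tibetan and Shouguang means were above it. They passed the filter through arrays of those breeds, so their place among the probe sets above 0 follows in part from the filter. In this comparison 1 of 13 passed, with 0.759% of all tested probe sets passing in either direction and 0.447% as higher. That was PLG probe set 1, with a mean of 8.13 over 4 Tibetan and 6.06 over 4 DRW arrays, a difference of 2.07 ± 0.42 (limma, adjusted p = 0.0459). PLG probe sets 2 and 3, both under the filter, differed by -0.09 and -0.18. For PLG probe set 1, raising signals to the dim limit gave 1.70 ± 0.30. Its 4 Tibetan arrays, at 7.67 to 8.67, exceeded its 4 DRW arrays, at 5.07 to 6.71. Of the latter, DRW hypoxia array 2 and DRW normoxia array 1 were under the dim limit. The DRW mean of PLG probe set 1 was under it too, so the filter bears on this call. The call was lost in 9 of the 12 fits that left out 1 array, with adjusted p up to 0.171, and with the W-linked mean entered as a covariate the difference was 1.62 (adjusted p = 0.721).

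ALB stood at 2.14 ± 0.50 in the same comparison, with means of 11.02 in Tibetan and 8.88 in DRW hearts (limma, adjusted p = 0.0843), TTR probe set 1 at 1.33 ± 0.30 (adjusted p = 0.0662) and AHSG at 2.85 ± 0.82 (adjusted p = 0.156). With signals raised to the dim limit, the AHSG difference was 1.45 ± 0.35. Both APOA1 probe sets stood near 0, at 0.02 ± 0.21 and -0.01 ± 0.19. Shouguang minus DRW was below 0 for 2 of 13 probe sets, where 50.5% of all tested probe sets were, and 0 of 13 passed, with 1.33% of all tested probe sets passing, while 7 of 13 had an unadjusted p under 0.05, as did 11.7% of all. In these counts too, AHSG, FGA probe set 1, FGG and PLG probe set 1 had DRW means under the dim limit and Shouguang means above it. The nearest to the threshold was TF probe set 2, with means of 9.79 in Shouguang and 8.62 in DRW hearts, a difference of 1.17 ± 0.27 (limma, adjusted p = 0.0612). In Tibetan minus Shouguang 0 of 13 passed, with 0.551% of all tested probe sets passing and 1 of the 13 (12.2% of all) at an unadjusted p under 0.05. The members ranged there from -0.43 for TF probe set 2 to 1.06 for AHSG. With signals raised to the dim limit, AHSG stood at 0.19 ± 0.35 in Tibetan minus Shouguang. The comparisons between breeds share arrays.

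Arrays of the same group differed too, and several of the transcripts differed together. ALB was 2.73 higher on array 2 than on array 1 of Shouguang hypoxia, and 1.64 lower on array 2 of Tibetan hypoxia. TTR probe set 1 moved by 1.26 and -0.68, and AHSG by 3.59 and -2.70, in the same pairs. For AHSG, both Shouguang hypoxia arrays and Tibetan hypoxia array 2 were under the dim limit, so the size of its moves is uncertain. Over the 6 pairs of arrays, TTR probe set 1, AHSG, FGB and TF probe set 2 had the sign of ALB in all 6, as did 1.74% of the other tested probe sets. FGG, TF probe set 3 and APOA1 probe set 2 had it in 5 of 6, and PLG probe set 1 in 4 of 6. FGA probe set 1, VTN and APOA1 probe set 1 had it in 3 of 6, and TF probe set 1 in 1 of 6. Array 2 was the lower one for 11 of 13 probe sets in Tibetan hypoxia, 12 in Tibetan normoxia, 5 in Shouguang hypoxia, 9 in Shouguang normoxia, 11 in DRW hypoxia and 5 in DRW normoxia. Over all tested probe sets these shares were 50.1%, 53.2%, 48.4%, 47.2%, 52.6% and 47.2% in the same groups.

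**Figure D3:**
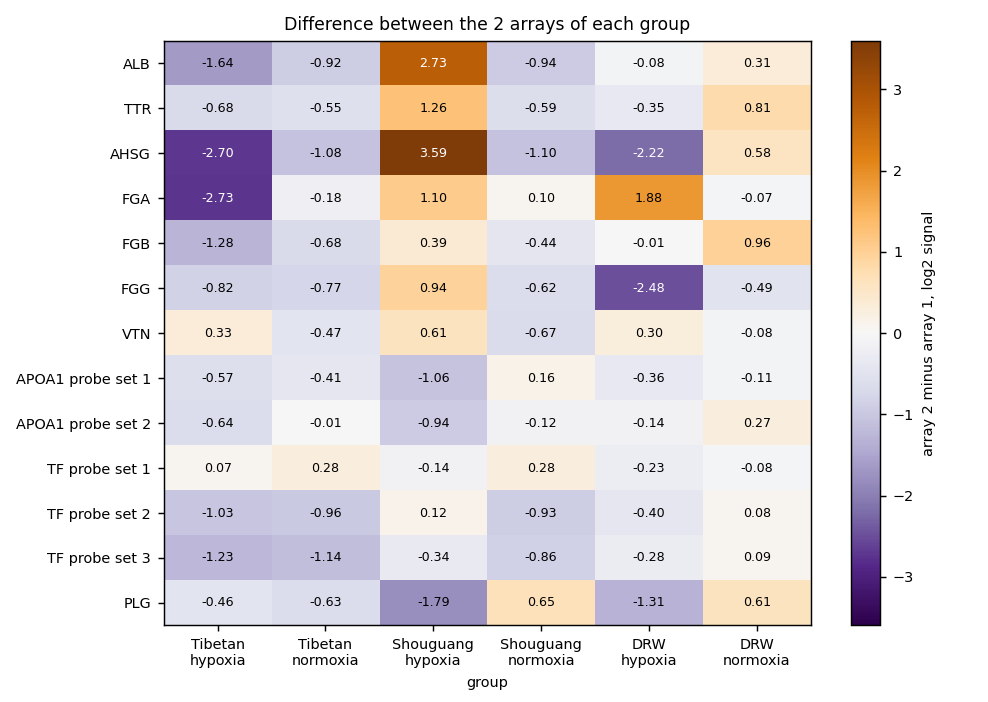
Array 2 minus array 1 on the log2 scale for each of the 13 probe sets (rows) in each group (columns), printed in the cells and coloured (orange where array 2 is higher, purple where it is lower). ALB, TTR and AHSG are higher on array 2 of Shouguang hypoxia by 2.73, 1.26 and 3.59, and lower on array 2 of Tibetan hypoxia and of both normoxia groups of these breeds. Both Shouguang hypoxia arrays of AHSG are under the dim limit.

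Over the 12 arrays, Pearson's r with ALB was 0.98 for TTR probe set 1 (Spearman's rho 0.98) and 0.98 for AHSG (rho 0.99). It was 0.89 for FGB, FGG and TF probe set 3, 0.87 for TF probe set 2, 0.78 for FGA, 0.75 for VTN and 0.61 for PLG probe set 1. It was -0.67 and -0.61 for the APOA1 probe sets and 0.24 for TF probe set 1. These arrays share breed and condition, and the central 95% of all tested probe sets had an r with ALB between -0.61 and 0.61. The members were chosen by their hypoxia differences, which these r values contain. Their place against that range therefore follows in part from the choice. Without the arrays farthest from the ALB median, Shouguang hypoxia array 1 and Shouguang normoxia array 1, r was 0.98 for TTR, 0.97 for AHSG, 0.58 for VTN and 0.85 for PLG probe set 1. Within the 6 hypoxia arrays r was 0.98 for TTR, 0.95 for AHSG and 0.21 for VTN, and within the 6 normoxia arrays it was 0.98, 0.99 and 0.90. AHSG was under the dim limit on 5 of 6 hypoxia arrays, so its r there rests mostly on dim readings.

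After the group means were taken out, which leaves 6 independent differences, r with ALB was 0.91 for both TTR probe set 1 and AHSG, 0.71 for FGB, 0.64 for TF probe set 2, 0.61 for FGA, 0.55 for VTN, 0.51 for FGG and 0.45 for TF probe set 3. It was below 0 for PLG probe set 1, at -0.45, although its r over the 12 arrays was 0.61, and also for TF probe set 1 (-0.60) and the APOA1 probe sets (-0.38 and -0.32). The central 95% of all tested probe sets then lay between -0.74 and 0.75. With the Shouguang hypoxia pair left out, r was 0.84 for TTR, 0.83 for AHSG and 0.90 for FGB, and 3 probe sets changed sign: APOA1 probe set 1 had 0.67, APOA1 probe set 2 had 0.83 and PLG probe set 1 had 0.27 without this pair. That of VTN was 0.24. The AHSG values again include hypoxia arrays under the dim limit.

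**Figure D4:**
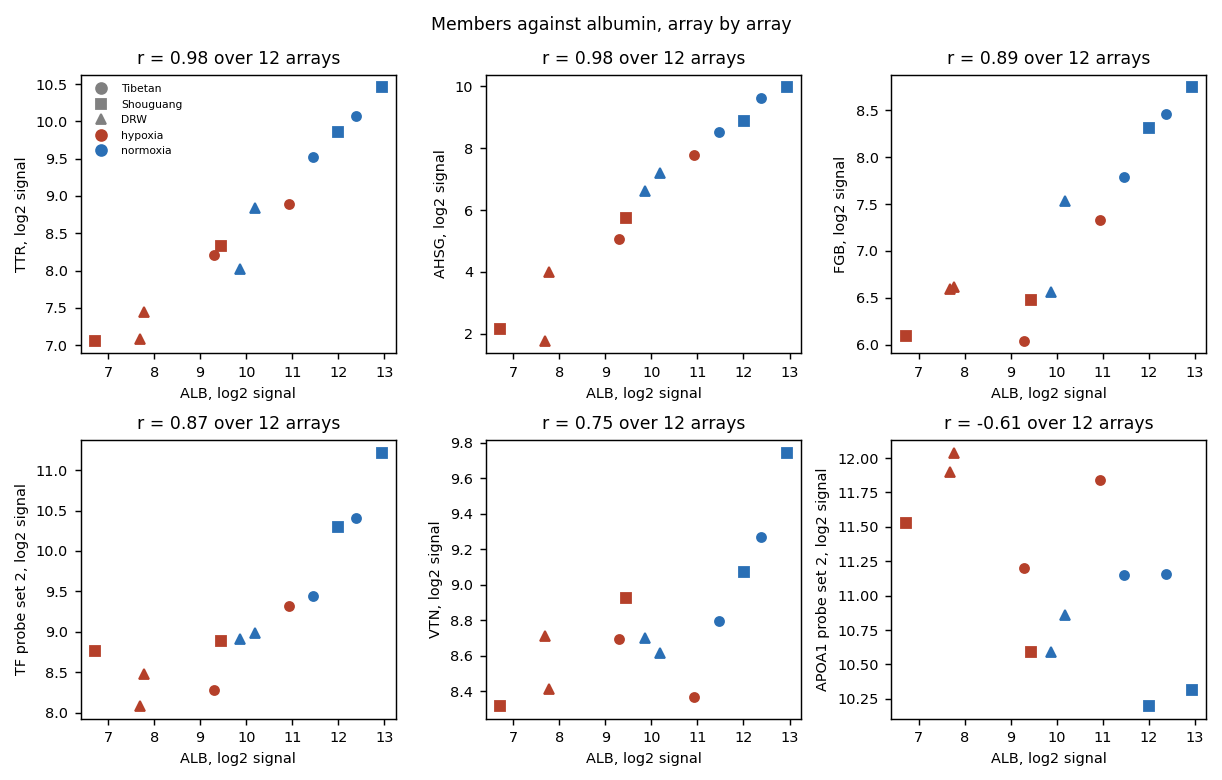
Log2 signal of 6 probe sets (vertical axes) against that of ALB (horizontal axes) on the 12 arrays; circles are Tibetan, squares Shouguang and triangles DRW hearts, red is hypoxia and blue normoxia, and r is Pearson's. TTR and AHSG lie close to a line with ALB (r = 0.98 each), VTN follows it on normoxia arrays, and APOA1 probe set 2 runs against it (r = -0.61).

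The genes outside the set whose signal was most like that of ALB over the 12 arrays, among 7740 probe sets with a range of at least 1, were SLC38A1 (r = 0.89), BLOC1S6 (0.83), CMSS1, SLC9A4, SPP2, LIPA, CAPN13 and ADORA3 (0.80). SPP2, a secreted phosphoprotein of liver and bone, was the only one of them on the lists of plasma and liver genes, and had a mean hypoxia difference of -1.35 ± 0.46. By deviations from the group means they were ACAT2 (r = 0.98), SLC36A1, SPIA5, HTR2C, AFF1, CTNND1, PTPRJ and CREB3L2 (0.94). No gene was among the 8 by both measures.

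In the RefSeq gene table of the GRCg7b assembly the 3 fibrinogen genes are neighbours on chromosome 4, where ALB also lies beside AFP. AHSG and TF are on chromosome 9, TTR on 2, PLG on 3, VTN on 19 and APOA1 on 24. The tested genes that flank the members stood closer to 0 than most member probe sets. The members were chosen by this hypoxia difference and the flanking genes by position, so the gap follows at least in part from that choice. Of 32 flanking protein-coding genes, 2 on each side of a member, 16 were tested. Their mean hypoxia differences ranged from -0.35 to 0.45, with 7 below 0 and a median of 0.05, and 0 passed (limma), with 0 at an unadjusted p under 0.05. AFP, alpha-fetoprotein, stood at -0.35 ± 0.36. FETUB and HRG, which flank AHSG and are liver genes as well, were under the filter. FETUB had mean log2 signals of 3.75 in hypoxia and 5.65 in normoxia, and HRG 5.38 in hypoxia and 5.09 in normoxia.

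Other plasma proteins were measured through lists of the same kind. In these and the later lists, counts at an unadjusted p under 0.05 in the mean hypoxia difference stand without the share over all tested probe sets. Counts of untested genes lower in hypoxia likewise stand without the share over all probe sets under the filter. Neither kind of count is read as a result about a list. Of 15 other carriers and liver-secreted proteins on the array, 6 were tested, 4 had estimates below 0 and 0 passed in the mean hypoxia difference (limma, adjusted p under 0.05), where 0.0564% of all tested probe sets passed, with 3 at an unadjusted p under 0.05. The vitamin D carrier GC had a mean log2 signal of 7.82 in hypoxia and 8.45 in normoxia, a difference of -0.63 ± 0.21. SPP2 stood at -1.35 ± 0.46, LECT2 at 0.75 ± 0.31 and IGFALS at -0.43 ± 0.41. The other 9 were under the filter and untested. Their mean log2 signals were lower in hypoxia for 8 of 9, with a median difference of -0.43, and the differences ran from -1.90 for FETUB to 0.29 for HRG.

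Of 16 other coagulation genes, 8 were tested and 5 were below 0, with PROS1, protein S, at -0.34 ± 0.12. The others with the smallest p were HABP2 (-0.43 ± 0.32), PROC (0.35 ± 0.32) and F13B (-0.44 ± 0.41). Of 14 complement genes 7 were tested, with C7 at 0.82 ± 0.22, CFI at 0.16 ± 0.12, C8G at -0.17 ± 0.26 and MASP2 at -0.27 ± 0.48. Of 12 other lipid transport genes 3 were tested, PLTP (0.26 ± 0.18), LPL (0.06 ± 0.13) and CETP (0.07 ± 0.35). None of the tested genes passed in the mean hypoxia difference (0 of 18, with 1 coagulation and 1 complement gene at an unadjusted p under 0.05 in limma). The rest were under the filter and untested. Their mean log2 signals were lower in hypoxia for 7 of 8 coagulation genes (median difference -0.255, from -1.23 for AGT to 0.71 for CPB2). They were also lower for 7 of 9 lipid transport genes (median -0.36, from -1.60 for APOH to 1.58 for APOA5). Of the complement genes, 3 of 7 were lower (median 0.14).

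Many enzymes of hepatocytes were dim on these arrays. Of 24 hepatocyte enzymes and transporters, 13 had a mean under the dim limit and 5 were under it on all 12 arrays, among them TAT, tyrosine aminotransferase. Of the 11 tested, 6 were below 0 with a median of -0.04, and 0 passed, with 1 at an unadjusted p under 0.05. FBP1, of gluconeogenesis, stood at -0.87 ± 0.38, FAH at -0.52 ± 0.25, UPB1 at -0.59 ± 0.40 and CYP7A1, of bile acid synthesis, at 0.38 ± 0.30. The summed signal of the 24 genes ranged from 1970 to 3067 over hypoxia arrays and from 1877 to 2928 over normoxia arrays. FABP1 was under the limit on 10 and HNF4A, a liver transcription factor, on 6 of 12 arrays. Other hepatocyte markers were brighter, with CPS1 under the limit on 3, FBP1 on 1 and HPD on 0 of 12 arrays. CPS1 had mean log2 signals of 6.76 in hypoxia and 6.39 in normoxia, and HPD 8.26 in hypoxia and 8.18 in normoxia. Of 12 liver transcription factors 6 had a mean under the dim limit, 0 were under it on all arrays and 6 were tested, with 0 passing and 0 at an unadjusted p under 0.05 (limma), among them PROX1 (-0.19 ± 0.10), GATA4 (-0.21 ± 0.14), CEBPA (-0.40 ± 0.48) and NR5A2 (-0.10 ± 0.18), of which PROX1 and GATA4 are also expressed in heart. The part of liver or yolk sac RNA in the differences above was not tested, and in such bulk samples fewer cells of a type and less RNA per cell cannot be told apart.

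**Figure D5:**
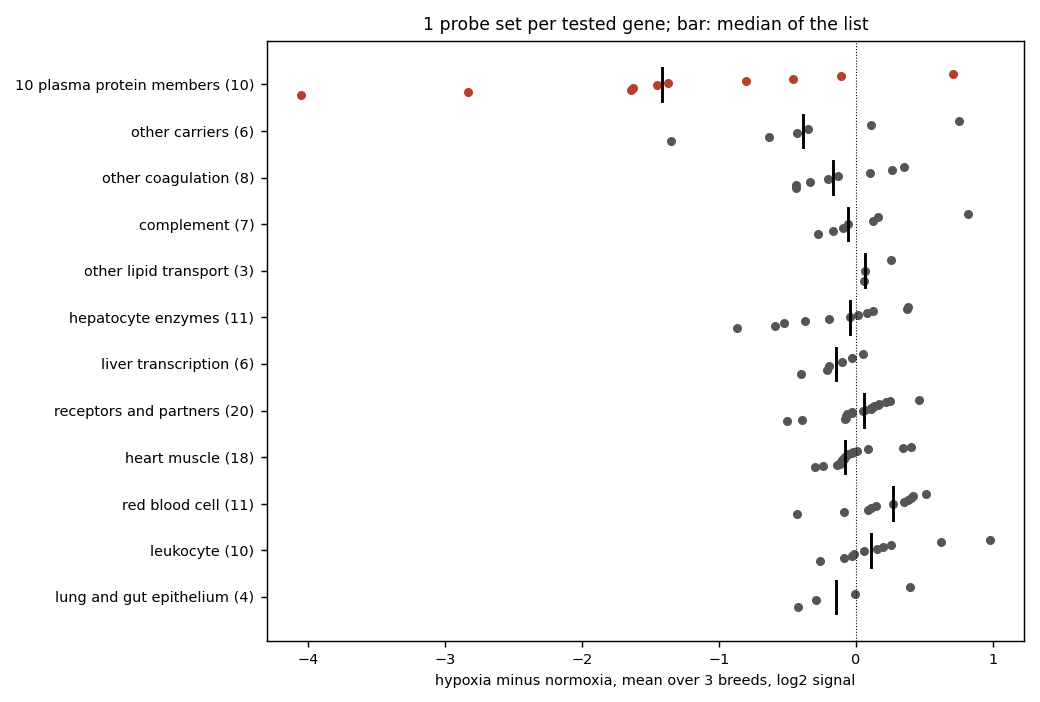
Mean hypoxia minus normoxia difference over the 3 breeds (horizontal axis, log2 scale) for each tested gene of 12 gene lists, with the number of tested genes in brackets; points are genes, 1 probe set each, and bars the medians. The 10 plasma protein genes (red) have a median of -1.41, and the medians of the other lists lie between -0.39 and 0.27. The 10 genes were chosen by this difference, so their distance from the other lists follows at least in part from that choice. Untested genes are not plotted, and their differences ran from -1.90 for FETUB to 1.58 for APOA5.

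Receptors and partners of the plasma proteins were closer together. Of 26 genes, 20 were tested and 9 were below 0, with a median of 0.06, 0 passing and 1 at an unadjusted p under 0.05 (limma). TFRC, the transferrin receptor, had means of 12.24 in hypoxia and 12.31 in normoxia, and SCARB1, the receptor for high-density lipoprotein, 8.20 in hypoxia and 8.15 in normoxia. TFPI, the tissue factor pathway inhibitor, stood at 0.46 ± 0.14, ABCG1 at -0.50 ± 0.25, SERPINE2 at 0.17 ± 0.10 and F3, tissue factor, at 0.22 ± 0.13.

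Markers of the other cells an embryonic heart sample can hold gave 0 passing genes in the mean hypoxia difference (limma). Counts at an unadjusted p under 0.05 are given list by list, without the share over all tested probe sets. Of 11 red blood cell genes 9 were above 0, with a median of 0.27, a summed signal of 92558 to 107827 in hypoxia and of 94832 to 107824 in normoxia, and 4 at an unadjusted p under 0.05. They include SLC25A37 (0.38 ± 0.09), TSPO2 (0.51 ± 0.14), EPB42 (0.40 ± 0.12) and HBE (0.42 ± 0.18). Of 18 heart muscle genes 14 were below 0, with a median of -0.08, 3 at an unadjusted p under 0.05, and MB, myoglobin, at -0.24 ± 0.05, TBX5 at 0.34 ± 0.12, TNNI1 at -0.14 ± 0.06 and TBX20 at -0.30 ± 0.15. Their summed signal was 437075 to 501235 in hypoxia and 459582 to 505357 in normoxia, and its r with ALB over the 12 arrays was 0.82. That of the 14 complement genes was -0.82, with 2958 to 3861 in hypoxia and 2785 to 2949 in normoxia. The part of these levels in the ALB differences was not tested.

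Of 10 tested leukocyte genes 6 were above 0 and 1 had an unadjusted p under 0.05, with LYZ at 0.98 ± 0.44, CSF1R at -0.26 ± 0.13, CD4 at 0.62 ± 0.34 and C1QB at 0.26 ± 0.20. Of 4 lung and gut epithelium genes 1 was above 0 and had an unadjusted p under 0.05, KRT7 (0.39 ± 0.10), beside EPCAM (-0.43 ± 0.31), SOX2 (-0.29 ± 0.39) and CDX2 (-0.01 ± 0.13). Between breeds, HBE, an embryonic globin, was lower in Tibetan than in DRW hearts by 1.52 ± 0.23 (limma, adjusted p = 0.00978). CD74, the invariant chain of antigen presentation, was lower in Tibetan than in DRW hearts by 0.67 ± 0.12 (adjusted p = 0.0310) and in Shouguang than in DRW hearts by 0.66 ± 0.12 (adjusted p = 0.0225). Over whole lists, 10 of 11 red blood cell genes were below 0 in Tibetan minus DRW, with 3 at an unadjusted p under 0.05, and 8 of 11 in Shouguang minus DRW, with 3. Of all tested probe sets, 11.7% had an unadjusted p under 0.05 (limma) in Shouguang minus DRW. That share is not given for Tibetan minus DRW, so its counts are not read as results about a list. Of 18 heart muscle genes 14 were above 0 in Tibetan minus DRW, with 6 at an unadjusted p under 0.05, and 15 in Shouguang minus DRW, with 4, and 0 passed in either. Of 11 hepatocyte enzymes 10 were above 0 in Tibetan minus DRW and 5 in Shouguang minus DRW, with 0 passing and 0 at an unadjusted p under 0.05 (limma). The medians of the 11 lists outside the members lay between -0.40 and 0.17 in Tibetan minus DRW and between -0.22 and 0.09 in Shouguang minus DRW. The part of these levels in the breed differences of PLG and ALB was not tested.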

How the data were processed

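Heart RNA of 12 samples was labelled from 8 microg of total RNA, per the labels. The authors deposited signal intensity per probe set, made with GCOS per the submitters' processing notes (version not stated). Each array's mean signal without the highest and lowest 2% was 500.1, so arrays were already scaled. Here the 96 control probe sets were left out of 38535, log2 was taken without further normalization, and probe sets under the 40th percentile of mean log2 signal were left out. R 4.3.3 with limma 3.58.1 fitted 6 group means, with variances moderated along intensity (residual df 6, prior df 6.16). Tests were two-sided, with Benjamini-Hochberg adjustment over all 23063 probe sets of a contrast and a threshold of 0.05. The fit was tested on simulated data. The number of arrays limits the precision: the median SE was 0.265 within a breed, 0.153 for the mean hypoxia difference and 0.187 between breeds. Only probe sets with 1 symbol (27178; 177 had several, 11180 none) were named.

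The members and lists were chosen with earlier results of these data known. Named are all member probe sets, list genes past the threshold, up to 4 genes per list with the smallest p in the mean hypoxia difference, defining genes of a list, and the 8 genes most like ALB by each measure. The flanking genes were chosen after the data had been seen. Alternatives were other filters, quantile normalization, median centring, an offset of 50, signals raised to the dim limit, no trend, array weights, a replicate block, the W-linked level as a covariate, the mean of all probe sets of a gene, only the arrays compared, an adjusted p of 0.1, and leaving out each array.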

Additional observations from a re-analysis of the deposited data

Results flagged for a closer look

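For a pair of probe sets, both under the filter, the hypoxia arrays lay below the normoxia arrays in Tibetan hearts and above them in DRW hearts. In Shouguang hearts the conditions overlapped for both probe sets. For TF probe set 4, hypoxia minus normoxia was -1.89 in Tibetan and 1.28 in DRW hearts, a gap of -3.17 on the log2 scale. For PLG probe set 2 it was -1.67 in Tibetan and 1.46 in DRW hearts, a gap of -3.12. The differences between breeds were not tested for these probe sets, whose signals lay under the dim limit on 8 and 9 of 12 arrays.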

How the results depend on the processing

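The medians of the 10 genes stayed below 0 under every alternative run. With the filter at the 60th percentile they were -0.461 for the mean hypoxia difference, -0.500 in Tibetan, -0.785 in Shouguang and -0.097 in DRW hearts; this filter tests fewer of the genes. An offset of 50 gave -0.937 for the mean and -1.444 in Shouguang, and raising signals to the dim limit gave -0.907 for the mean and -0.143 in DRW hearts. Leaving out 1 array at a time gave -1.663 to -1.080 for the mean, -1.582 to -0.714 in Tibetan, -2.361 to -1.904 in Shouguang and -0.956 to -0.342 in DRW hearts. The highest values came without Tibetan hypoxia replicate 2 (mean and Tibetan) and DRW hypoxia replicate 2 (DRW).

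The number of members passing in Tibetan minus DRW was 0 with no filter, the 60th percentile, no trend and the W-linked covariate, 2 with array weights, and 3 with an adjusted p of 0.1 and with only the arrays compared. In Shouguang minus DRW it was 1 with the 60th percentile, median centring, the dim limit, an adjusted p of 0.1 and only the arrays compared. With the replicate block, 1 passed in Tibetan minus Shouguang, 3 in Tibetan minus DRW and 2 in Shouguang minus DRW. What arrays with the same replicate number share is not stated. Array 2 minus array 1 correlated between the conditions at 0.194 in Tibetan, 0.199 in Shouguang and 0.091 in DRW hearts. Between groups of different breeds it correlated at 0.059 to 0.148. A part shared by replicate number was not tested. Without 1 array, 0 to 3 passed in Tibetan minus DRW, 0 to 3 in Shouguang minus DRW (3 in each without Shouguang hypoxia replicate 1) and 0 to 0 in Tibetan minus Shouguang. FGA in Tibetan minus Shouguang, -0.42 with all arrays, ranged over these fits from -1.103 to 0.264, the sign turning without Tibetan hypoxia replicate 2. The causes of these changes were not tested, other than fewer genes or arrays.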
